A study of Mus musculus with 6 samples.

Results

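The 28 genes described here encode enzymes of cholesterol synthesis and proteins that sense, carry or export sterols or regulate their synthesis and uptake. They were chosen by pathway role, with no threshold on level or fold change, but the hemisphere differences in these same libraries were already known when the list was drawn up, so their differences are given as a description and nothing is supported with them. All 28 were found, 1 row each, among the 52636 genes of the deposited table, and all 28 passed the filter on low counts that left 20473 genes. Not every enzyme of the pathway is on the list.

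The tissue was the primary visual cortex, V1, of 3 C57BL/6J wild-type animals aged 28 days. Each mouse had lived for 3 days with its right eyelids trimmed, sutured and sealed under anaesthesia (monocular deprivation, MD). The contralateral group is left V1, opposite the closed eye, and the ipsilateral group is right V1 of the same 3 mice, so each group has 3 libraries and no animal with both eyes open is included. The study's title names the circular RNA circHomer1 in experience-dependent plasticity, and the hemisphere comparison asks what eye closure changes in the cortex that the closed eye mainly drives. The right eye was closed in every mouse, so an effect of closure cannot be told apart from a difference between left and right V1.

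Cholesterol is built from acetyl-CoA by way of mevalonate, isoprenoid units, squalene and lanosterol. In the brain it is made locally, because the blood-brain barrier keeps out circulating lipoproteins, and it goes into myelin, synaptic membranes and vesicles. SREBP transcription factors switch on most of these enzymes when SCAP escorts them from the endoplasmic reticulum, and INSIG proteins hold that complex back when sterols are plentiful. Oxysterols act through LXR receptors on the opposite arm, which exports cholesterol and limits its uptake.

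Libraries held 17849253 to 32213500 reads assigned to genes. In edgeR's quasi-likelihood test without a term for the mouse, 26 of 20473 genes passed an adjusted p under 0.05, all lower in contralateral V1, among them the activity-induced genes Fos (log2 fold change -2.02, adjusted p = 0.00263), Egr1 (-1.56, 0.0127) and Arc (-1.38, 0.0335). That count rests on few libraries, and was 0 without contralateral library 2 or without mouse 2, 14 without mouse 3, 17 without contralateral library 3 and 16 without ipsilateral library 2. Contralateral library 1 and ipsilateral libraries 1 and 3 had 14.5 to 35.9 CPM (read counts scaled to library size) of the mitochondrial ribosomal RNA mt-Rnr1, against 2243 to 5801 CPM in the other 3, a difference that cuts across the hemispheres. A sample is 1 hemisphere of 1 mouse.

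Many genes of sterol synthesis were lower in the V1 opposite the closed eye, with levels down to 62.8% of those in the other hemisphere for Idi1. The exporter gene Abca1 stood at 122% of its ipsilateral level but passed in no fit. Of the 20 enzyme genes, 18 had a log2 fold change below 0, against 44.6% of all genes tested. In 13 of the 20 the contralateral side was the lower one in all 3 mice, against 17.3% of all genes tested. The summed level of the 20 was 712, 729 and 698 CPM in contralateral libraries 1 to 3, against 938, 1008 and 877 CPM in ipsilateral libraries 1 to 3. The groups did not overlap, and the contralateral mean was 0.758 of the ipsilateral one. Hmgcs1 supplied 24.2% to 26.9% of this sum in the contralateral libraries and 29.4% to 32% in the ipsilateral ones. Without it the sum of the other 19 enzymes was 529 ± 13.7 CPM in contralateral V1 and 653 ± 37.3 CPM in ipsilateral V1 (SD, n = 3 each).

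None of the 28 genes passed without a mouse term, where 0.127% of all genes passed as lower and 0% as higher. At an unadjusted p under 0.05 in that fit there were 10 of the 28, against 6.15% of all genes, with both directions counted. Abca1 was higher and the others of the 10 were lower. DESeq2's Wald test called 3 as lower (Hmgcs1, Idi1 and Insig1), against 0.357% of all genes. Both hemispheres come from the same animals, and with the mouse as a block edgeR called 8 of the 28 as lower and none as higher, against 0.698% of all genes as lower and 0.195% as higher. The 8 were Hmgcs1, Idi1, Fdft1, Sqle, Cyp51, Msmo1, Insig1 and Stard4. With the remaining mice as blocks, all 8 were called without mouse 1 (0.956% of all genes lower), 6 without mouse 2 (not Fdft1 and Stard4, 0.602%) and 7 without mouse 3 (not Idi1, 0.946%). These fits have few libraries from which to estimate spread. Over all genes they called 250, 174 and 269, against 183 with all 3 mice. The 8 were picked from the same libraries, so their repeated calls are no independent check. Over the 28 genes, 17 were lower in all 3 mice (17.3% of all genes) and 2 were higher in all 3 (19.2% of all genes). Contralateral and ipsilateral levels did not overlap for 11 genes that were lower (6.29% of all genes) and for 1 that was higher (6.7% of all genes). The median log2 fold change of the 28 was -0.17, against 0.03 over all genes tested, and in mice 1 to 3 singly it was -0.23, -0.26 and -0.16.

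**Figure D1:**
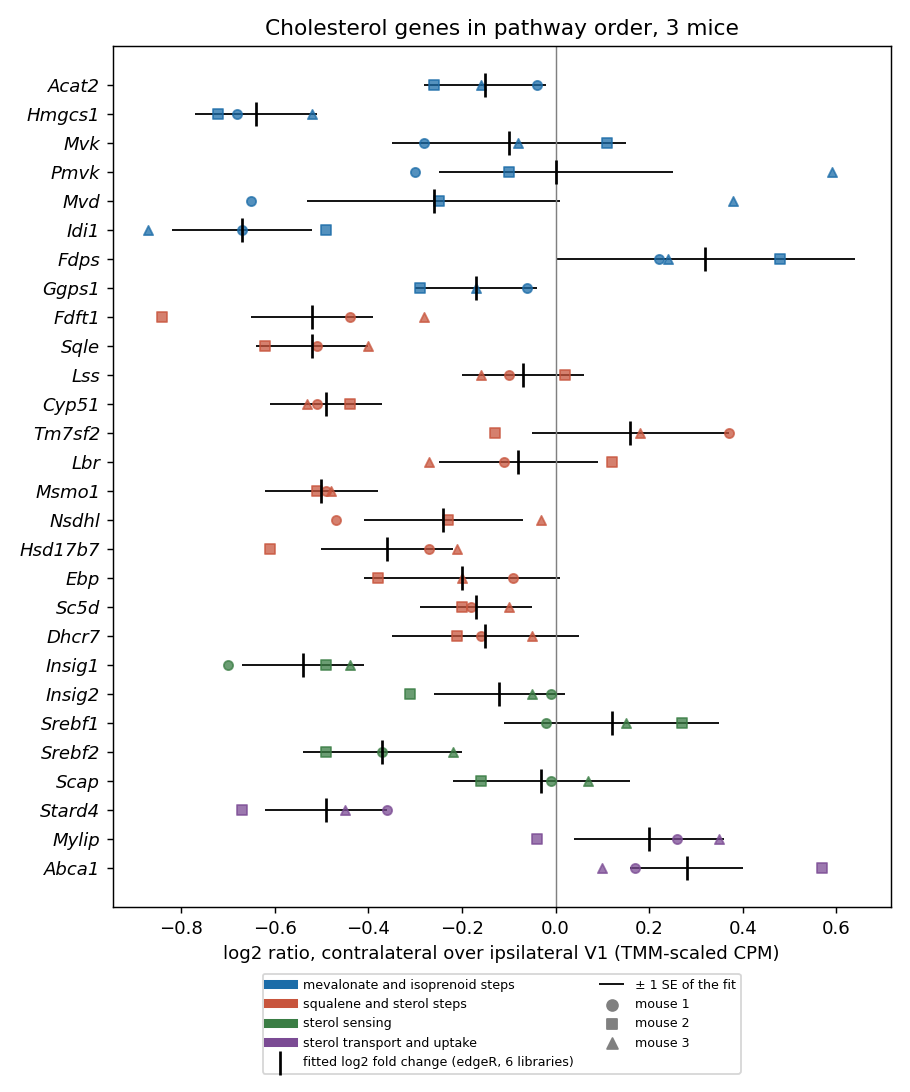
Log2 ratio of contralateral over ipsilateral level for each of the 28 genes in pathway order (points, 1 per mouse, coloured by role), with edgeR's fitted log2 fold change (black tick) and ± 1 SE (line). Hmgcs1, Idi1, Fdft1, Sqle, Cyp51, Msmo1, Insig1 and Stard4 lie left of 0 in all 3 mice, Abca1 and Fdps lie right of it, and Pmvk and Mvd spread to both sides.

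Promoter sequence was available in RefSeq's GRCm38.p6 annotation for 24 of the 28 genes, as 32 promoters. The letters TCACNCCAC, a form of the sterol regulatory element bound by SREBP, and CCAAT, the box bound by NF-Y, which works together with SREBP, were searched on both strands of the 250 bases before each start. TCACNCCAC was found in 1.05% of all 32851 promoters and, among the 28 genes, in that of Hmgcs1 alone. CCAAT was found in 33.8% of all promoters and in 22 of the 32 promoters here (68.8%), which belong to 21 genes. These matches are a description of letters and not of binding. Sequences of 5 of the 8 genes that passed with the mouse as a block, those with an entry, are written out 5′ to 3′ on the gene's strand, with both motifs in capitals (ATTGG is CCAAT on the other strand). No 2 of the motifs in them overlap. Hmgcs1 (chr13:119690101-119690350, plus strand) covers 250 bases before the start. Insig1 (chr5:28071162-28071362, plus strand) covers the part that lies outside the deposited gene model. Idi1 (chr13:8885576-8885605, plus strand), Cyp51 (chr5:4104709-4104738, minus strand) and Msmo1 (chr8:64733616-64733645, minus strand) are given as 30 bases around the CCAAT box nearest the RefSeq start, which there lies within the deposited gene model.
Hmgcs1: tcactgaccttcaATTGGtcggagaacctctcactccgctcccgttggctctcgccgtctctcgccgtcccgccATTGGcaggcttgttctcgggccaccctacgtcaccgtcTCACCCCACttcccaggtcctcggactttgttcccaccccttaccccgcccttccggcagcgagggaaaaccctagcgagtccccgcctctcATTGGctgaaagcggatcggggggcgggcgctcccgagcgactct
Idi1: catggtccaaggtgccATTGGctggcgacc
Cyp51: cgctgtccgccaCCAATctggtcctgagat
Msmo1: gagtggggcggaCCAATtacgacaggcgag
Insig1: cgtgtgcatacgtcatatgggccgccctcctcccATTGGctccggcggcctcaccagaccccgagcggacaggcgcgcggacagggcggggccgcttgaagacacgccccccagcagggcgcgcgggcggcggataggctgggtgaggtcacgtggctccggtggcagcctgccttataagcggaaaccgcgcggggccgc

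In Hmgcs1 the sterol element spans bases 137 to 129 before the start, with CCAAT boxes on the other strand that begin 237, 176 and 45 bases before it. Idi1 has boxes that begin 45 and 14 bases before its start, Msmo1 160, 96 and 55 bases before it, Cyp51 29 bases before it and Insig1 216 bases before it. CCAAT also stands in the promoters of Lss, Mvk, Mvd, Dhcr7, Insig2, Hsd17b7, Lbr, Pmvk, Sc5d, Srebf1, Ggps1, Mylip, Srebf2, Tm7sf2, Ebp and Nsdhl. None of these genes passed in either fit, so the box was not particular to the genes that passed.

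Marker genes of cortical cell types were looked at in the same libraries. All 10 oligodendrocyte markers had a log2 fold change below 0 (median -0.23), against 44.6% of all genes, and 7 of them were lower in all 3 mice (17.3% of all genes). None passed in either fit, with the myelin junction gene Cldn11 (-0.34) and the galactolipid synthesis gene Ugt8a (-0.37) at the smallest p. The sum of the 10 was 3737 to 6294 CPM in contralateral V1 and 5236 to 6494 CPM in ipsilateral V1, and the groups overlapped. The sum of 8 neuron markers was 3437 to 4880 CPM in contralateral V1, below the 5011 to 5250 CPM of ipsilateral V1. Their median log2 fold change was -0.25, with 7 of 8 below 0 (44.6% of all genes) and 4 lower in all 3 mice (17.3% of all genes). Of these markers Gad2, a GABA-synthesising enzyme gene, alone passed with the mouse as a block in edgeR (log2 fold change -0.48, adjusted p = 0.0301). Sums of 10 astrocyte markers were 9644 to 12224 CPM in contralateral and 10138 to 10606 CPM in ipsilateral V1, with a median log2 fold change of 0.04 and Gja1 (0.10) and Fgfr3 (0.09) at the smallest p. Of these 10, 3 were below 0 (44.6% of all genes). Markers of oligodendrocyte precursors (median -0.04), microglia (0.16), endothelial and mural cells (0.07) and blood (0.07) had sums that overlapped between hemispheres and no gene that passed. Below 0 were 4 of 6 precursor, 0 of 8 microglia, 1 of 7 endothelial and mural and 2 of 5 blood markers (44.6% of all genes). Higher in all 3 mice were 1, 2, 2 and 2 of them in that order (19.2% of all genes), and lower in all 3 were 2, 0, 0 and 0 (17.3%). At the smallest p on those lists were Gpr17 (0.22) and Olig1 (-0.13) of the precursors, Siglech (0.26) of microglia, Flt1 (0.18) and Slco1a4 (0.21) of vessels, and Alas2 (0.27) and Hba-a2 (0.33) of blood. No marker on these lists was at 0 in all libraries. The part of these shifts in the sterol genes' differences was not tested, and in whole tissue fewer cells of a type and less RNA per cell cannot be told apart.

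The enzymes that open the pathway differed widely among themselves. Hmgcs1 (chromosome 13, 119690379 to 119708260, plus strand, GRCm38), which makes the HMG-CoA from which mevalonate is formed, stood at 172, 196 and 185 CPM in contralateral libraries 1 to 3, against 276, 322 and 265 CPM in ipsilateral libraries 1 to 3. Every contralateral library was below every ipsilateral one, at 64% of the ipsilateral level in the fit (log2 fold change -0.64, SE 0.13). Idi1 (chromosome 13, 8885501 to 8892451, plus strand), the isomerase that interconverts the isoprenoid units, had 12.8, 14.2 and 11.2 CPM in contralateral V1, against 20.4, 19.96 and 20.5 CPM in ipsilateral V1. Its log2 fold change of -0.67 (SE 0.15) was the lowest of the 28, and its 3 ipsilateral libraries had an SD of 0.3 CPM. Acat2, the cytosolic thiolase that makes acetoacetyl-CoA, was 23.2 ± 0.855 CPM in contralateral and 25.8 ± 1.38 CPM in ipsilateral V1 (SD, n = 3 each), a small difference without overlap (log2 fold change -0.15, SE 0.13).

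The 3 enzymes that turn mevalonate into an isoprenoid unit showed no common direction across mice. Mvk, mevalonate kinase, averaged 10.1 ± 2.56 CPM in contralateral and 10.8 ± 3.45 CPM in ipsilateral V1. Pmvk, the phosphomevalonate kinase, averaged 11.3 ± 1.12 and 11.4 ± 4.29 CPM in contralateral and ipsilateral V1. Mvd, the decarboxylase, averaged 8.15 ± 0.871 CPM in contralateral and 9.8 ± 4.2 CPM in ipsilateral V1 (SD, n = 3 each). Ipsilateral library 3 was the lowest of the 3 ipsilateral libraries for all 3 genes (7.63, 6.93 and 5.54 CPM), and for Pmvk and Mvd mouse 3 went the other way from mice 1 and 2 (log2 ratios 0.59 and 0.38).

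Of the enzymes at the isoprenoid branch point, Ggps1, which makes the geranylgeranyl group for protein prenylation, had 65.5, 56.4 and 72 CPM in contralateral V1 and 68.4, 68.9 and 81.2 CPM in ipsilateral V1. It was lower in each mouse, but the groups overlapped (log2 fold change -0.17, SE 0.13). Fdps, the farnesyl diphosphate synthase, had 24 to 57 reads per library and averaged 1.97 ± 0.589 CPM in contralateral and 1.56 ± 0.331 CPM in ipsilateral V1, with overlap (log2 fold change 0.32, SE 0.32). Its gene model shares 26.7% of its exonic bases with another gene on the same strand, so its count is uncertain. That other gene had 21 reads in total. Whether the overlap accounts for the low count of Fdps was not tested, and other ways of losing reads were not examined.

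In the squalene and sterol steps, 11 of 12 log2 fold changes were below 0 (44.6% of all genes), and 4 genes passed as lower with the mouse as a block (0.698% of all genes). Fdft1 (chromosome 14, 63145150 to 63179578, minus strand), squalene synthase and the first enzyme committed to sterols, had 45.7, 40.3 and 50.04 CPM in contralateral V1, against 62.1, 72 and 60.8 CPM in ipsilateral V1. The groups were apart, with mouse 2 the widest (log2 fold change -0.52, SE 0.13). Sqle (chromosome 15, 59315077 to 59331192, plus strand), the squalene epoxidase that is a rate-limiting step, had 45.8, 44.1 and 42.9 CPM in contralateral V1, against 65.2, 67.8 and 56.7 CPM in ipsilateral V1. The contralateral libraries had an SD of 1.46 CPM and none reached the lowest ipsilateral one (log2 fold change -0.52, SE 0.12). Lss, which closes the ring of lanosterol between the steps of Sqle and Cyp51, stood apart from its neighbours in the pathway, with 38.7, 44.4 and 35.1 CPM in contralateral V1 and 41.4, 43.8 and 39.1 CPM in ipsilateral V1, overlapping (log2 fold change -0.07, SE 0.13).

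Cyp51 (chromosome 5, 4081145 to 4104746, minus strand), the lanosterol demethylase, had 53.1, 59.5 and 50.3 CPM in contralateral V1, against 75.7, 80.9 and 72.7 CPM in ipsilateral V1. Msmo1 (chromosome 8, 64718139 to 64733792, minus strand), the sterol methyl oxidase, had 52.7, 56.9 and 48.9 CPM in contralateral V1, against 74, 81 and 68.3 CPM in ipsilateral V1. Both genes were at 71% of the ipsilateral level, without overlap, and the log2 ratio of Msmo1 was nearly the same in each mouse (-0.49, -0.51 and -0.48). Levels of both kept the same order of mice in both hemispheres, highest in mouse 2 and lowest in mouse 3.

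The remaining sterol enzymes showed smaller differences. Hsd17b7, a sterol ketoreductase, averaged 21.7 ± 1.98 CPM in contralateral and 27.9 ± 1.66 CPM in ipsilateral V1 (SD, n = 3 each), without overlap (log2 fold change -0.36, SE 0.14). Sc5d, the lathosterol desaturase, averaged 68.6 ± 3.82 CPM in contralateral and 76.9 ± 5.87 CPM in ipsilateral V1, also without overlap (-0.17, SE 0.12). Neither passed with the mouse as a block. Nsdhl, the decarboxylating sterol dehydrogenase (log2 fold change -0.24, SE 0.17), the isomerase gene Ebp (-0.20, SE 0.21) and Dhcr7, the reductase that completes cholesterol (-0.15, SE 0.20), were lower in each mouse with overlapping groups. The 2 sterol reductase genes Tm7sf2 (13 ± 3.69 CPM in contralateral, 11.7 ± 2.04 CPM in ipsilateral V1) and Lbr, which also tethers chromatin to the nuclear lamina (14.4 ± 2.45 CPM in contralateral, 15.2 ± 1.64 CPM in ipsilateral V1), overlapped and differed in direction between mice.

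**Figure D2:**
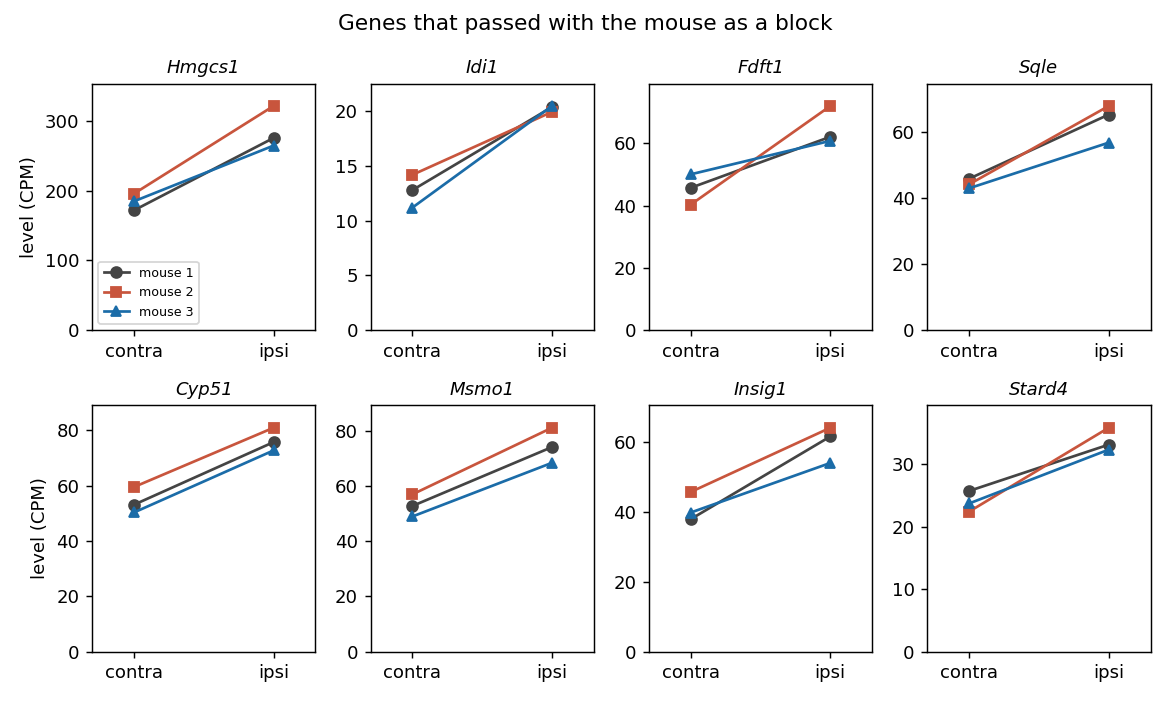
Level in CPM (y axis from 0) of the 8 genes that passed with the mouse as a block, in contralateral (left) and ipsilateral V1 (right), with a line joining the 2 hemispheres of each mouse. All lines climb towards the ipsilateral side, for Hmgcs1 between 172 to 196 CPM on the left and 265 to 322 CPM on the right.

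Among the genes of sterol sensing and SREBP control, the 2 INSIG genes and the 2 SREBP genes each behaved unevenly. Insig1 (chromosome 5, 28071363 to 28078662, plus strand), itself an SREBP target, had 38, 45.8 and 39.9 CPM in contralateral V1, against 61.7, 64.2 and 54.1 CPM in ipsilateral V1. The groups were apart, at 68.8% of the ipsilateral level (log2 fold change -0.54, SE 0.13). Insig2, which retains SREBP in the same way, averaged 30.8 ± 3.77 CPM in contralateral and 33.3 ± 2.31 CPM in ipsilateral V1 (SD, n = 3 each), with overlap (-0.12, SE 0.14). The ratio of their raw counts needs no library scaling, and it was 1.23, 1.7 and 1.16 in contralateral against 1.99, 1.92 and 1.52 in ipsilateral V1, lower in each mouse although contralateral library 2 exceeded ipsilateral library 3.

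Srebf2 (chromosome 15, 82147266 to 82205376, plus strand), which encodes the SREBP that mainly drives sterol enzymes, had 167, 124 and 118 CPM in contralateral V1 and 215, 175 and 138 CPM in ipsilateral V1. Mouse 1 was highest in both hemispheres and the groups overlapped, although each mouse was lower on the contralateral side (log2 fold change -0.37, SE 0.17). This value was -0.24 without ipsilateral library 1, -0.09 in the libraries with low mt-Rnr1 and -0.53 in those with high mt-Rnr1. Srebf1, whose products favour fatty acid genes, averaged 25.8 ± 6.26 CPM in contralateral and 23.8 ± 7.66 CPM in ipsilateral V1 (SD, n = 3 each; log2 fold change 0.12, SE 0.23). The raw count ratio of Srebf2 to Srebf1 was 5.22, 4.77 and 6.08 in contralateral against 6.64, 8.06 and 7.88 in ipsilateral V1, without overlap. The share of all gene pairs whose ratio separates in this way is not given here, so this is a description. Scap, the escort of both SREBPs, averaged 61.2 ± 15.2 CPM in contralateral and 62.6 ± 14.9 CPM in ipsilateral V1 (-0.03, SE 0.19).

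Proteins that move sterols did not share a direction. Stard4 (chromosome 18, 33199355 to 33213862, minus strand), a soluble carrier that shuttles cholesterol between membranes and an SREBP target, had 25.7, 22.4 and 23.7 CPM in contralateral V1, against 33.1, 35.8 and 32.3 CPM in ipsilateral V1. It was lower without overlap (log2 fold change -0.49, SE 0.13). Abca1 (chromosome 4, 53030787 to 53159895, minus strand), the LXR target that exports cholesterol to apolipoproteins, had 109.6, 131 and 108 CPM in contralateral V1, against 97.2, 88 and 101 CPM in ipsilateral V1. Each contralateral library was above each ipsilateral one, at 122% of the ipsilateral level (0.28, SE 0.12), and the gene did not pass in either fit. Mylip, an LXR target whose ubiquitin ligase marks lipoprotein receptors for degradation, averaged 16.3 ± 2.53 CPM in contralateral and 14.1 ± 0.461 CPM in ipsilateral V1 (SD, n = 3 each), higher in mice 1 and 3 and not in mouse 2 (0.20, SE 0.16). Within each library the raw count ratio of Hmgcs1 to Abca1 was 1.57, 1.5 and 1.71 in contralateral against 2.84, 3.66 and 2.63 in ipsilateral V1. Both genes were already without overlap singly, in opposite directions, so this ratio restates their differences and is no further result.

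**Figure D3:**
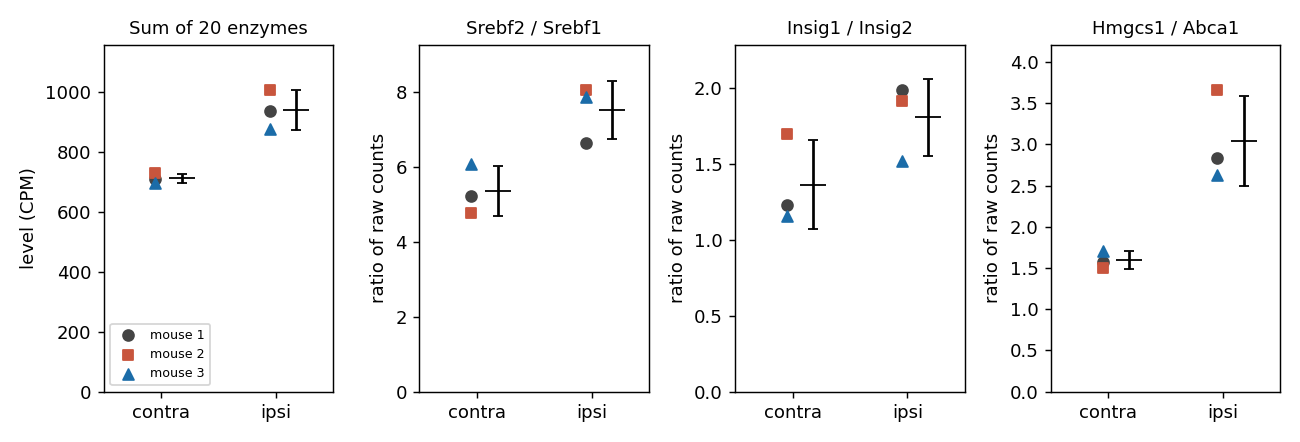
Summed level of the 20 enzyme genes in CPM and 3 ratios of raw counts (y axes from 0), in contralateral (left) and ipsilateral V1 (right), with 1 point per mouse and the mean ± SD beside it (n = 3). The enzyme sum, Srebf2 over Srebf1 and Hmgcs1 over Abca1 do not overlap between hemispheres, and Insig1 over Insig2 does. Hmgcs1 and Abca1 were each without overlap singly, in opposite directions, so the separation of their ratio is no further result.

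Levels per length, in RPKM (reads scaled by exonic length and library size) averaged over 6 libraries, spanned 51.4 for Hmgcs1 to 0.419 for Fdps. The count of Fdps is uncertain, so its low level may not be that of its transcript. Hmgcs1 exceeded 97.3% of all genes tested, and Srebf2 (31.3 RPKM) exceeded 94.1%. Insig1 (16.4), Sc5d (14.9), Cyp51 (14.8), Ggps1 (14.6) and Fdft1 (13) followed in RPKM and overlapped across libraries. Summed per length, the 8 mevalonate and isoprenoid genes reached 81.4, 83.4 and 80.7 RPKM in contralateral V1, against 112, 118 and 101 RPKM in ipsilateral V1. The 12 squalene and sterol genes reached 81.4, 80.8 and 77.1 RPKM in contralateral V1, against 102, 108 and 93.4 RPKM in ipsilateral V1, and in both sums the hemispheres did not overlap. Without Hmgcs1, the other 7 mevalonate and isoprenoid genes summed to 44, 40.7 and 40.5 RPKM in contralateral V1, against 52.3, 47.6 and 43.2 RPKM in ipsilateral V1, and the hemispheres overlapped. Lss (3.75), Ebp (3.59), Tm7sf2 (3.54) and Lbr (3.1) were the lowest in RPKM besides Fdps. Ranks and sums per length depend on the deposited exonic length, which was longest for Lss (10787 bases). In CPM Lss averaged 39.4 in contralateral and 41.5 in ipsilateral V1, against 7.7 and 8.88 for Ebp. The 8 genes that passed with the mouse as a block had a median level of 11.7 RPKM, and the other 20 had 4.77 RPKM, so the sets were not equal in level. RPKM is scaled by length, so these medians do not give counting precision, which rests on read counts.

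**Figure D4:**
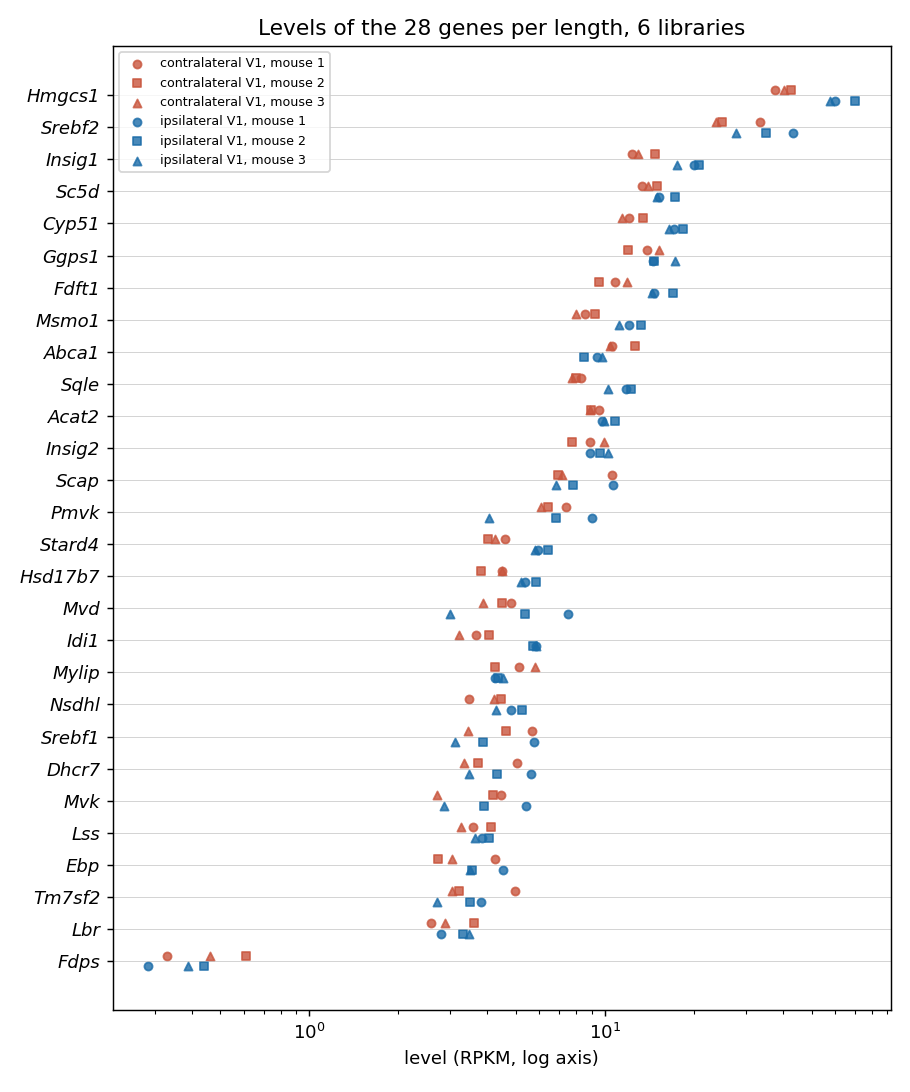
Level of each of the 28 genes in RPKM (log axis) in the 3 contralateral libraries (upper row of points, red) and the 3 ipsilateral libraries (lower row, blue), in order of mean level. Hmgcs1 is highest at a mean of 51.4 RPKM and Fdps, whose count is uncertain, lowest at 0.419 RPKM.

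Related pathways were read from lists of genes that are not among the 28. Of 16 fatty acid synthesis genes, none passed in either fit (median log2 fold change -0.04). Yet 7 of the 16 were lower in all 3 mice (17.3% of all genes) and 2 were higher in all 3 (19.2% of all genes). Lower values in every mouse were thus not particular to the 28 genes. The elongase gene Elovl6 averaged 67.7 ± 2.4 CPM in contralateral and 85.8 ± 2.03 CPM in ipsilateral V1 (SD, n = 3 each; log2 fold change -0.34, adjusted p = 0.641 without and 0.0949 with the mouse as a block in edgeR), and the desaturase gene Scd1 had a log2 fold change of -0.30 (adjusted p = 0.797 and 0.2 in the same fits). None of 17 tested genes of sterol turnover, efflux and uptake passed (median -0.07), with the lipoprotein receptor gene Vldlr (-0.23) and the oxysterol-binding protein gene Osbp (-0.18) at the smallest p. Of these 17, 8 were lower in all 3 mice (17.3% of all genes) and 1 was higher in all 3 (19.2% of all genes). Among 13 genes that use isoprenoids the median was -0.03, led by the dolichol synthesis gene Nus1 (-0.22) and the ubiquinone side-chain gene Pdss1 (0.26), and none passed. The 11 genes of SREBP cleavage and sterol-regulated degradation had a median of 0.00, with the cleavage proteases Mbtps2 (-0.23) and Mbtps1 (0.11) on either side of it, and none passed. In all 3 mice 3 of these 11 were lower and 3 higher, and of the 13 isoprenoid genes 2 were lower and 3 higher (17.3% and 19.2% of all genes). For the 6 genes named last the adjusted p in edgeR was at least 0.815 without and 0.292 with the mouse as a block. The deposited table of 1488 circular RNAs, each with at least 1 read in every library, listed none with a host among the 28 genes.

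The differences of the 8 genes were set beside the technical features of the libraries. Within the libraries with low mt-Rnr1 (contralateral 1 against ipsilateral 1 and 3) their log2 fold changes ran from -0.69 for Idi1 to -0.36 for Stard4, and within those with high mt-Rnr1 (contralateral 2 and 3 against ipsilateral 2) from -0.76 for Hmgcs1 to -0.57 for Cyp51, with none of the 28 genes passing in either set. Some other genes changed sign between the sets, such as Tm7sf2 (0.60 in the low and -0.17 in the high set), Scap (0.27 and -0.15) and Dhcr7 (0.14 and -0.29). Transcripts of the 8 genes had a median GC content of 45.5%, against 50.1% for the other 20. With a correction for GC content, the mouse block called 9 of the 28 as lower, the same 8 and Srebf2, against 0.679% of all genes. Exons of Fdft1 share 18.3% of their bases with Ctsb and those of Hmgcs1 12.1% with Gm48342 on the opposite strand. These counts are uncertain without the strand setting of the counting. Exons of Tm7sf2 share 15.3% with Vps51 on the same strand, so the count of Tm7sf2 is uncertain under any strand setting. Acat2 has a near-identical mouse paralogue, Acat3, with which reads could be shared.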

How the data were processed

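Total RNA from V1 was made into libraries with a stranded kit, per the labels' protocols. The gene table holds raw read counts per Ensembl gene as the authors deposited them, and GRCm38, HISAT2, featureCounts, DESeq2 and limma appear without versions or roles in the submitters' processing notes. Strand setting and annotation release: not given in the sources used here. Symbols came from GENCODE M21 (GRCm38), which held 52489 of 52636 IDs. The deposited circRNA counts were used only to look up host genes, and columns of samples of other series numbered 0.

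Counts were compared with edgeR 4.0.16 in R 4.3.3 (TMM scaling, quasi-likelihood test, low counts removed by filterByExpr at a minimum of 10 per library and 15 in total, Benjamini-Hochberg adjustment over 20473 genes, threshold 0.05), and with DESeq2 1.42.0 as an alternative. Levels are TMM-scaled CPM, or RPKM by the deposited exonic length. SE is the size of the log2 fold change divided by the root of the F statistic. Scripts were tested on simulated data. The labels give both hemispheres of a number the same mouse. Deviations from group means correlated within mice at 0.508, 0.0979 and 0.221, and the highest with another mouse were -0.236, 0.186 and 0.193. The main comparison has no mouse term and the fit with the mouse as a block stands beside it.

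The members and lists were chosen with earlier results of these data known. All 28 members were named, and from each other list the genes that passed in either fit, or else the 2 with the smallest p, except 1 that is not reported here. The GC correction and the block without each mouse were chosen after seeing the data. No molecular identifiers were available to the computation here, so depth gives counting error only. Without the mouse term, p-values rest on the spread between libraries of the same hemisphere. With the mouse as a block they rest on the spread of the hemisphere difference across these 3 mice. Figures used Python 3.11.15 and matplotlib 3.10.9.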

Additional observations from a re-analysis of the deposited data

How the results depend on the processing

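The number of genes called depended strongly on the fit. Against 26 genes and 0 of the 28 members without a mouse term in edgeR, the replicate block gave 183 and 8, the DESeq2 test 81 and 3, no filter on low counts 109 and 1, the GC correction 54 and 1, and the replicate block with GC correction 168 and 9. The block without mouse 1, 2 or 3 gave 250, 174 and 269 genes and 8, 6 and 7 members, the 6 without mouse 2 lacking Fdft1 and Stard4 and the 7 without mouse 3 lacking Idi1. With so few libraries in each of these fits, their counts do not measure stability. Leaving out 1 library or 1 mouse without the block gave 0 to 39 genes and no member. The count was 0 without contralateral library 2 or both libraries of mouse 2, where 833 and 521 genes had an unadjusted p under 0.05, and it was 14 without mouse 3, 17 without contralateral library 3 and 16 without ipsilateral library 2. DESeq2 size factors in edgeR gave 0 members. The median log2 fold change of the members (-0.17) was -0.13 in the libraries with low mt-Rnr1 and -0.28 in those with high mt-Rnr1, ran from -0.29 to -0.17 with 1 library or mouse left out of the fit without the block, and was -0.16 with the block without mouse 2. The cause of these shifts was not tested. Over 21 fits, which share libraries, 15 members stayed below 0, Abca1 and Mylip stayed above it, and 11 took both signs. The share of all genes that kept their sign is not given here, so these counts are a description only. The 8 members called with the block lay between -0.77 and -0.36. They were picked from these same libraries, so that range is a description and no check on them. The replicate block changed no call among the other lists except that of Gad2. At this depth Fdps, with 24 to 57 reads per library, allows no firm statement.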
